A study of Mus musculus with 4 samples.

Results

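Airway and blood vessel walls of the lung contain smooth muscle, and 10 mouse genes of that muscle were examined for peaks of the transcription factor HOXA5. They are the contractile and cytoskeletal genes Acta2, Myh11, Tagln, Cnn1, Lmod1 and Des, the kinase gene Mylk, the regulators Srf and Myocd, and the integrin gene Itga8. The genes were chosen by function, and they are 10 of 21779 protein-coding genes placed on the assembled chromosomes. A peak was counted for a gene when its summit lay inside the RefSeq span, or within 100 kb with that gene as the nearest protein-coding gene. By this rule 5 of 4289 peaks in replicate 1 and 5 of 2832 peaks in replicate 2 belonged to the 10 genes, and all of them lay at Itga8 or Mylk.

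The peaks come from chromatin immunoprecipitation followed by sequencing (ChIP-seq) of lungs at E15.5 (embryonic day), from Hoxa5FLAG/FLAG embryos in which both copies of Hoxa5 encode a protein with a FLAG epitope. The 2 immunoprecipitates with an anti-FLAG antibody (replicates 1 and 2) each have a peak list, while the 2 input libraries, of the same genotype and age, were not analysed here. All samples carried the tag, although their titles include the abbreviation wt, and no untagged lung was used here. No label ties the replicates to different litters or pools, so their agreement may be partly technical, and the peaks do not tell in which cell type of the lung HOXA5 was bound.

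Smooth muscle shortens when myosin light chain kinase, the product of Mylk, phosphorylates myosin so that it pulls on actin filaments. Most genes of the contractile apparatus are switched on by serum response factor (SRF), which binds a short DNA element called the CArG box, together with its coactivator myocardin. Itga8 encodes the alpha8 chain of an integrin that attaches mesenchymal and smooth muscle cells to matrix proteins such as nephronectin and fibronectin. HOXA5 is a homeodomain protein of the lung mesenchyme, and homeodomains recognise short AT-rich sequences with a TAAT core.

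The CArG boxes of 2 genes without a peak, Srf and Acta2, are shown because they are the elements through which this gene set is best known to be controlled. They were searched on both strands of RefSeq promoter windows (GRCm38.p6, from 250 bases before to 50 after a transcript start), which were present for 7 of the 10 genes. No window was present for Myh11, Tagln or Myocd, and DNA outside the windows was not searched. Each box shown is given 5′ to 3′ on the minus strand, which is the coding strand of both genes, with the box in capitals.
Srf, 82 bases before the start: tggggctcgCCATATAAGGagcggcctc
Srf, 62 bases before the start: gcggcctcgCCATAAAAGGaaacattgt
Acta2, 84 bases before the start: tgctgaggtCCCTATATGGttgtgttag
Acta2, 34 bases before the start: gtctttgctCCTTGTTTGGgaagcgagt
Each distance is counted to the first base of the box. The boxes in Srf, whose product binds such elements, are full matches, with 6 letters A or T between CC and GG. Those in Acta2, which encodes smooth muscle alpha-actin, hold 1 G or C among the 6 central letters. Full matches were found in 1 of 7 member windows and in 1.52% of 21263 windows of protein-coding genes. With 1 central letter free, the counts were 2 of 7 and 9.58%. TGATTNA, part of the composite site of HOX proteins with their TALE partners, was in none of the 7 windows and in 9.17% of all windows. TAAT, read on both strands, was in 2 of 7, at Itga8 and Acta2, and in 51.8% of all windows. No peak summit lay in any of these 7 windows, so the matches are a description of the promoters and not of bound DNA.

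Itga8 carried the most enriched peak of the set. The gene spans 195 kb on chromosome 2 (mm10, 12106632 to 12301985) and is transcribed from the minus strand. In replicate 1 a peak of 531 bp at 12317071 to 12317601 had a fold enrichment of 11.7 and a −log10 q of 92.6. In replicate 2 a peak of 364 bp at 12317116 to 12317479 had 4.72-fold enrichment and a −log10 q of 18.0. Both measures were computed by the authors within a list, so they rank its peaks and give no change between replicates. The summits were 10 bp apart and lay 15.4 kb upstream of the Itga8 transcript start. The replicate 1 peak had a higher fold than 96.0% of its list (rank 170), and the replicate 2 peak than 81.7% (rank 518). This site therefore ranked far above the median in both lists, more so in replicate 1.

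Between this site and the body of Itga8 lies E030013I19Rik, a long noncoding RNA gene (12301246 to 12312315) whose annotated span runs over the 5′ end of Itga8. The replicate 1 summit was 5.00 kb from that noncoding gene and 15.3 kb from Itga8. With genes of any type allowed as nearest gene, the upstream peak was therefore counted for the noncoding gene and not for Itga8.

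Inside Itga8 the peaks were weaker. A peak at 12221724 to 12222188 (465 bp) in replicate 1 had 3.78-fold enrichment, and its partner at 12221782 to 12222104 (323 bp) in replicate 2 had 2.85. Their summits were 64 bp apart, about 80 kb downstream of the transcript start. The fold of the first exceeded 47.3% of its list and that of the second 29.5%, so neither reached the median of its own list. With a fold of at least 3 required, this pair was no longer counted as shared.

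The 2 remaining Itga8 peaks were each found in a single list. A replicate 2 peak of 315 bp at 12264115 to 12264429 lay inside the gene, 37.6 kb downstream of the start, with 2.94-fold enrichment. A replicate 1 peak of 273 bp at 12060316 to 12060588 lay beyond the 3′ end, 46.2 kb from the gene, with 3.48-fold enrichment. The pseudogene Gm13310 lies between that peak and Itga8. At the edge of the rule, replicate 1 peaks 23.5 kb and 27.7 kb upstream of the Itga8 span (4.68- and 3.57-fold) were left out because Mindy3, a deubiquitinase gene, was nearer, at 21.8 kb and 17.5 kb. Neither had a partner in replicate 2.

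**Figure D1:**
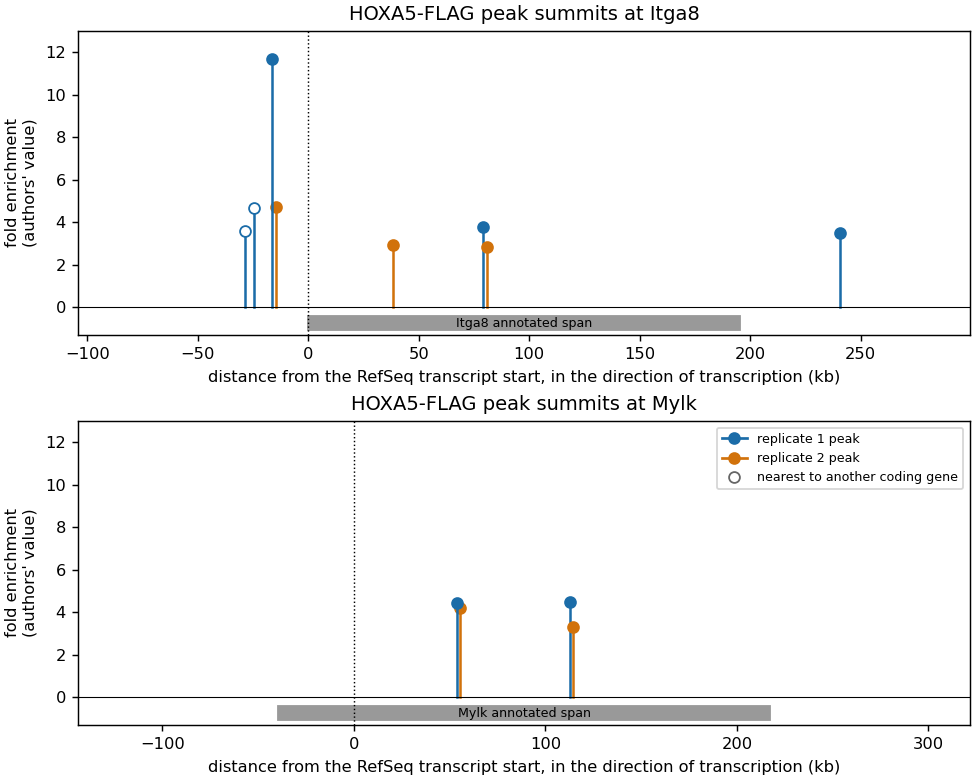
HOXA5-FLAG peak summits within 100 kb of Itga8 (top) and Mylk (bottom), by distance from the RefSeq transcript start in kb (x axis) and fold enrichment within each list (y axis). Filled points are peaks counted for the gene and open points those nearer to another coding gene, with replicates drawn slightly apart. The peak pair upstream of Itga8 stands at 11.7 in replicate 1 and 4.72 in replicate 2, and the 2 Mylk pairs lie inside the gene between 3.32 and 4.50.

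Mylk had 2 peaks in each list, and both were shared. The gene spans 257 kb on chromosome 16 (34745199 to 35002436) on the plus strand, and its RefSeq promoter window places a transcript start at 34784950, inside that span. The first pair was at 34839512 to 34839858 (347 bp) with 4.44-fold enrichment in replicate 1, and at 34839475 to 34839938 (464 bp) with 4.19-fold in replicate 2. The second was at 34898327 to 34898671 (345 bp) with 4.50-fold enrichment in replicate 1, and at 34898445 to 34898718 (274 bp) with 3.32-fold in replicate 2. The summits of the first pair were 12 bp apart and those of the second 4 bp apart. They lay 54.7 kb and 114 kb downstream of that start, 58.9 kb from each other.

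The Mylk peaks ranked in the middle of their lists. Those of replicate 1 had higher folds than 62.7% and 63.4% of the list, and those of replicate 2 than 73.0% and 48.2%. Their −log10 q was 18.3 and 16.5 in replicate 1 and 13.8 and 7.20 in replicate 2. Exons and introns were not told apart here, so it is not known which part of the gene the peaks overlap, nor how they lie relative to the internal promoters of Mylk.

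Over both genes, the 5 replicate 1 peaks had a median fold of 4.44 (3.48 to 11.7), beside 3.87 over the whole list. The 5 replicate 2 peaks had a median of 3.32 (2.85 to 4.72), beside 3.36. In each list 4 of the 5 had a partner, where partners overlap by at least 1 bp. Over the whole lists, 51.2% of replicate 1 peaks and 77.6% of replicate 2 peaks had one. The 10 peaks were 273 to 531 bp long, beside median lengths of 414 bp over the replicate 1 list and 436.5 bp over the replicate 2 list. Both Itga8 and Mylk had 2 shared peaks, a number that 0.964% of protein-coding genes of all lengths reached or passed. That share was not computed for genes as long as these, of 195 kb and 257 kb.

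**Figure D2:**
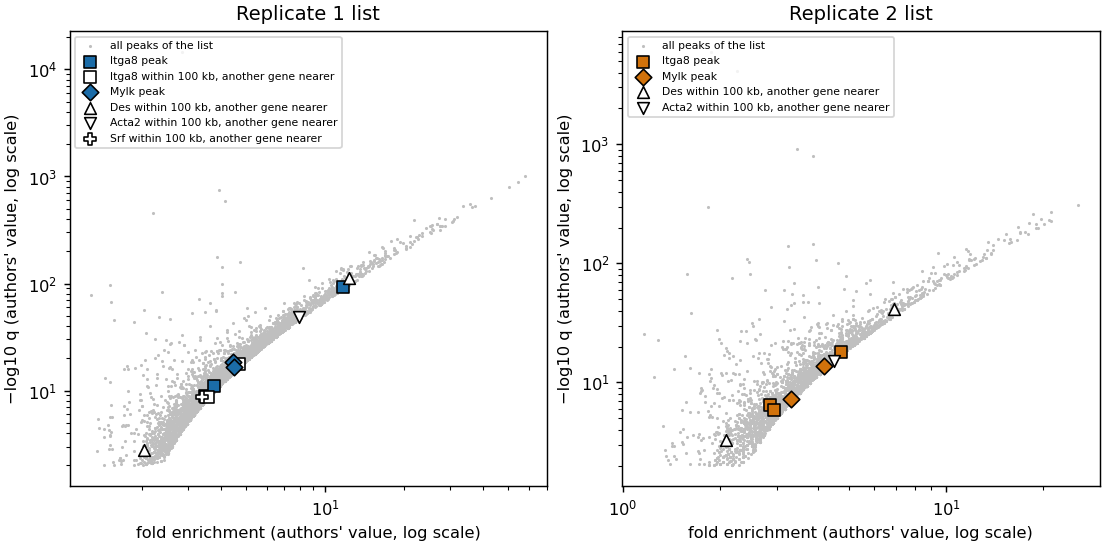
Fold enrichment (x axis, log scale) against −log10 q (y axis, log scale) of every peak in the replicate 1 list (left) and the replicate 2 list (right), with peaks of Itga8 and Mylk filled and peaks within 100 kb of a smooth muscle gene but nearer to another coding gene open. The Itga8 upstream peak (11.7-fold) and the open Des peak (12.3-fold) lie in the upper part of replicate 1, and the Mylk peaks lie near the centre.

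Thus 2 of the 10 genes had a peak in replicate 1, beside 10.4% of all protein-coding genes. The same 2 had one in replicate 2, beside 7.58%, and a shared peak, beside 5.97%. With 10 genes, each gene is 10 percentage points, and no test was made because each list is 1 sample and the genes, although picked by function, were chosen with results of these data known.

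Gene length moved with these counts. Itga8 and Mylk are the only 2 of the 10 that are at least 150 kb long, and 30.0% of all protein-coding genes of that length had a shared peak. None of the 3 members of 40 to 150 kb (Myh11, Myocd and Lmod1) had one, beside 8.78% of genes of that length. None of the 5 shorter members (Acta2, Tagln, Cnn1, Srf and Des) had one, beside 2.95%. The length limits were set after the values were seen, and the part of length in the result was not tested.

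No peak was counted for the other 8 genes, but their surroundings differed. Des, the intermediate filament gene of muscle (chromosome 1, 75360292 to 75368579), had the strongest peak within 100 kb of any of the 10. It lay 22.0 kb upstream of the Des start, at 75338044 to 75338528 in replicate 1 with 12.3-fold enrichment and at 75338080 to 75338498 in replicate 2 with 6.89-fold. The summits were 2 bp apart, and the folds exceeded 96.6% and 93.9% of the lists. It was not counted for Des because the aminopeptidase gene Dnpep was nearer, at 20.6 kb. Another pair, inside the ion channel gene Asic4 and 93.1 kb from Des, was weak, with 2.04- and 2.09-fold enrichment.

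Acta2 (chromosome 19, 34240336 to 34255585) had a shared peak at 39.1 kb from its span, on the side of its 3′ end. That peak lay inside Stambpl1, a deubiquitinase gene, at 34201041 to 34201402 in replicate 1 (7.96-fold) and 34201099 to 34201398 in replicate 2 (4.48-fold). Its folds exceeded 91.0% and 77.8% of the lists. Near Srf (chromosome 17, 46546838 to 46558267) a replicate 1 peak of 3.38-fold lay 71.9 kb away, 136 bp from Ptk7, a receptor-like kinase gene. It had no partner, and the nearest replicate 2 peak was 1306 kb from Srf.

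The remaining 5 genes had no peak within 100 kb in either list. Lmod1, which encodes an actin filament nucleator of smooth muscle (chromosome 1, 135324813 to 135368065), was 138 kb from a shared peak inside Nav1 with 4.79- and 3.29-fold enrichment. Cnn1, the calponin gene (chromosome 9, 22099221 to 22109221), was 149 kb from a shared peak next to Plppr2 (25.6-fold in replicate 1, 15.1-fold in replicate 2). Tagln, which encodes the actin-binding protein SM22 (chromosome 9, 45929628 to 45936058), was 198 kb from a shared peak inside Sik3, of 3.49- and 2.46-fold. That pair was long, 2097 and 4430 bp, and its summits were 1594 bp apart.

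Myh11, the smooth muscle myosin heavy chain gene, and Myocd, the myocardin gene, were the farthest of these from a shared peak. Myh11 (chromosome 16, 14194527 to 14292188) had a single replicate 1 peak within 1 Mb, 603 kb away, and no replicate 2 peak. Of all protein-coding genes, 27.5% had at most 1 replicate 1 peak within 1 Mb and 18.6% had no replicate 2 peak. Myocd (chromosome 11, 65173608 to 65269989) was 248 kb from its nearest replicate 1 peak (5.04-fold, without a partner) and 874 kb from its nearest shared peak.

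The order of the 10 genes by distance to a shared peak was Itga8 and Mylk (inside the gene), Des, Acta2, Lmod1, Cnn1, Tagln, Myocd, Myh11 and Srf. The median distance was 143 kb, beside 503 kb over all protein-coding genes, and 3 of the 10 were farther than that median. For replicate 1 the medians were 105 kb and 260 kb, with 1 gene farther, and for replicate 2 they were 143 kb and 384 kb, with 3 farther. Such distances depend on the number of peaks in a list, on gene density and, being measured to the gene span, on gene length. The genes were not matched for density or length.

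**Figure D3:**
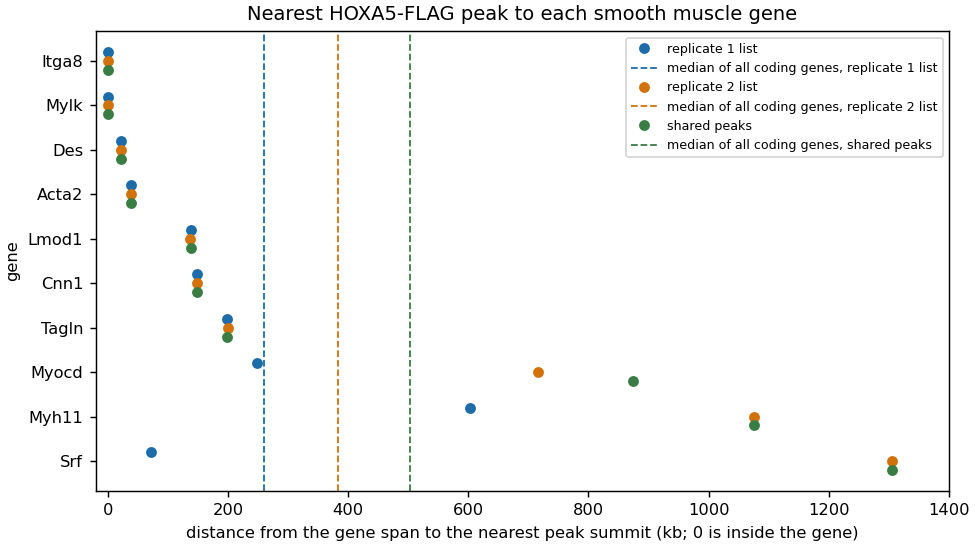
Distance in kb (x axis) from the span of each of the 10 smooth muscle genes (y axis) to the nearest peak summit of replicate 1, of replicate 2 and of the shared peaks, with dashed lines at the medians of all protein-coding genes. Itga8 and Mylk are at 0, Des and Acta2 lie within 100 kb, and Srf, Myh11 and Myocd lie beyond the median of 503 kb for shared peaks.

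When a peak was counted for every coding gene within 100 kb, whether nearest or not, 5 of the 10 genes had a peak in replicate 1 (Itga8, Mylk, Acta2, Srf and Des), beside 26.0% of all protein-coding genes. In replicate 2 there were 4 (all but Srf), beside 18.4%, and the same 4 had a shared peak, beside 14.7%. This count was added after the data were seen.

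Other genes of smooth muscle contraction were taken from a list of 35. A shared peak was counted for 7 of them (20.0%, beside 5.97% of all protein-coding genes), and no others of the list had a peak in either replicate. Cald1, which encodes the actin-binding protein caldesmon, had the best ranked, inside the gene (chromosome 6, 34626716 to 34627364 in replicate 1) with 14.6- and 8.42-fold enrichment, and another of 3.17- and 2.68-fold. Lpp, the gene of a focal adhesion protein, held 3, the best ranked (24833311 to 24833704 on chromosome 16) with 7.68- and 5.41-fold. The lowest ranked Lpp pair had 2.07- and 3.02-fold enrichment and summits 745 bp apart. Its −log10 q in replicate 1 was 2.07, where the lowest of that list was 2.01. Csrp1, which encodes a LIM protein of smooth muscle, held 1 (chromosome 1, 135740953 to 135741422, 6.48- and 3.59-fold), 373 kb from Lmod1. The others included the calcium channel gene Cacna1c, the alpha-actinin gene Actn1 and Prkg1, which encodes the cGMP-dependent kinase that relaxes smooth muscle. Their folds in replicate 1 were 5.67 at Cacna1c, 5.16 at Actn1 and 2.79 at Prkg1. The Prkg1 partner in replicate 2 had 2.42-fold enrichment and a −log10 q of 2.98, with summits 405 bp apart.

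The 7 genes with a shared peak ran from 32.2 kb (Csrp1) upwards. Their median length was 222 kb, beside 24.9 kb for the 28 without, and 5 of the 8 list genes of at least 150 kb had one. Among all protein-coding genes of that length the share was 30.0%. The part of length was not tested here either.

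Of 29 partners of SRF and regulators of smooth muscle, 7 had a replicate 1 peak (24.1%, beside 10.4%) and 3 a shared peak (10.3%, beside 5.97%). The shared ones all lay outside protein-coding genes. Fgf10, a mesenchymal growth factor gene, had one at 35.2 kb with 12.2- and 7.41-fold enrichment, the T-box gene Tbx18 one at 60.5 kb with 5.10- and 4.77-fold, and the TEAD factor gene Tead1 one at 41.3 kb with 2.00- and 1.98-fold. The peaks at Tbx18 and Tead1 were longer than 1000 bp. Mef2c, Gata4, Gata6 and Foxf1 had peaks in replicate 1 alone, with folds from 3.60 to 4.79. The myocardin-related factor genes Mrtfa and Mrtfb had none. Here the 3 genes with a shared peak had a median length of 77.9 kb, beside 34.1 kb for the 26 without. Of the 4 list genes of at least 150 kb, 1 had a shared peak, beside 30.0% of all protein-coding genes of that length. The part of length was not tested for this list.

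Itga8 was also set beside 32 other genes of integrins, their ligands and their adaptors. Of these 11 had a replicate 1 peak (34.4%, beside 10.4% of all protein-coding genes) and 6 a shared peak (18.8%, beside 5.97%). Itga1, which encodes a collagen-binding integrin chain, held the best ranked (chromosome 13, 115050696 to 115051315), at 8.47-fold in replicate 1 and 4.36-fold in replicate 2. Lims1, whose product PINCH links integrins to actin, held one of 5.94- and 3.99-fold, and the matrix gene Tnc one of 6.05- and 4.11-fold. Itgb6 held another, and Frem1 and Itgb1 had theirs at 13.9 kb and 44.6 kb. Itgb1 encodes the beta chain that pairs with alpha8, and its peak reached 3.19- and 3.51-fold. That pair was long, 1771 and 1360 bp, with summits 176 bp apart. Npnt and Fn1, the genes of the ligands nephronectin and fibronectin, had no peak. In this list the 6 genes with a shared peak had a median length of 113 kb, beside 68.2 kb for the 26 without. Of its 5 genes of at least 150 kb, 1 had a shared peak, beside 30.0% of all protein-coding genes of that length. The part of length was not tested.

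Paralogues of Acta2, Mylk, Myh11 and Lmod1, mostly of heart, skeletal muscle or nonmuscle cells, had a share close to that of all genes. Relatives of other members, such as Itga1 for Itga8, were counted in the other lists. No gene of the paralogue list was at least 150 kb long, unlike Itga8 and Mylk. Of 18, only Mylk4 had a shared peak (5.56%, beside 5.97%), at 70.4 kb with 4.83- and 3.01-fold enrichment, and no other had a peak in either list. The actin genes Acta1, Actc1, Actb and Actg1 were without one, like Acta2, and Mylk2 and Mylk3 were without one, unlike Mylk.

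Each gene of these lists was also compared, by its best ranked shared peak, with the upstream Itga8 peak. Likeness was the sum over the 2 lists of the absolute log2 ratios of fold, so that a lower value is more alike. It was 0.58 for Itga1, 0.71 for Fgf10 and 0.80 for Lpp, the 3 lowest, and rests on 2 values per gene. A lower ranked Lpp peak (chromosome 16, 24933795 to 24934203, 9.27- and 4.02-fold) was slightly more alike, at 0.57.

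**Figure D4:**
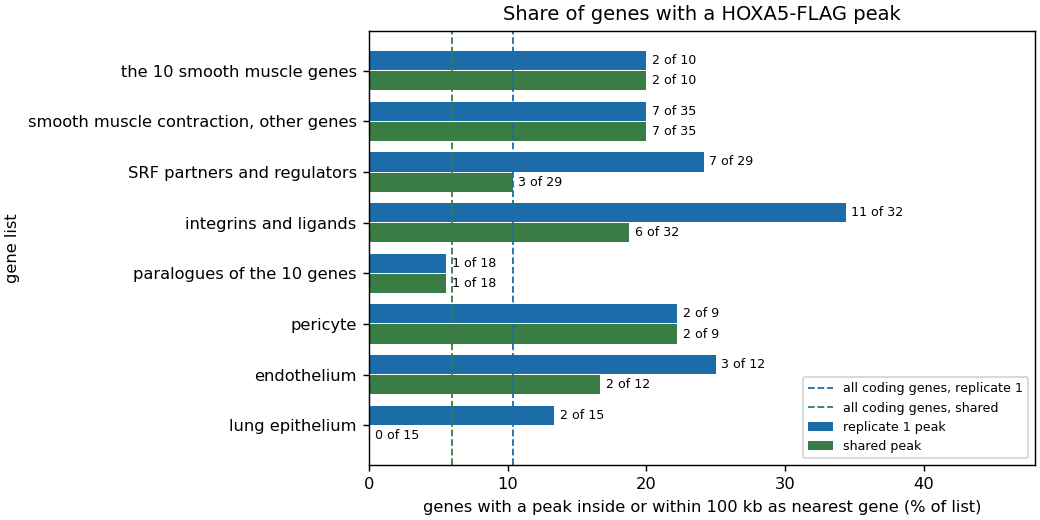
Percentage of genes (x axis) in each list (y axis) with a replicate 1 peak or a shared peak inside or within 100 kb as nearest gene, with counts beside the bars and dashed lines at the shares of all protein-coding genes (10.4% and 5.97%). The 10 smooth muscle genes and the 35 other contraction genes both stand at 20.0% for shared peaks, and the paralogues at 5.56%.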

How the data were processed

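HOXA5-FLAG ChIP-seq peaks of 2 immunoprecipitates were analysed, grouped by the sample titles. Per the submitters' processing notes, the tools included Bowtie2 2.5.2, SAMtools 1.18, bedtools 2.31.0 and MACS3 3.0.1, with build mm10; settings, control and filters were not given there. The authors deposited 1 list per replicate, not on pooled reads, with a fold enrichment (a ratio), −log10 p and −log10 q for each summit. The deposited score was not used. The lists hold no read counts, so depth is unknown, and depth affects how many peaks pass a threshold. The replicate number inside the peak names of replicate 2 differs from the sample label, which was followed.

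Summits were assigned to genes of a RefSeq table (GRCm38.p6, the mm10 assembly) with Python 3.11.15 and pandas 2.3.3. Genes starting below 3 Mb on chromosomes other than Y were left out, since those positions appear to be on scaffolds. All 10 members and all list genes matched a symbol or synonym. A shared peak is a replicate 1 peak that overlaps a replicate 2 peak by at least 1 bp, placed at its replicate 1 summit. Assignment and overlap were tested on simulated peaks. Members and lists were chosen by function, with earlier results of these data known. Named genes are the 10 members, genes between a peak and its member, up to 3 genes per list (lowest mean rank by −log10 q), and the 3 most like the best member peak; further list genes and neighbours were named after their values were seen, and 1 list gene is not reported here. No test was run, because each list is 1 sample and because of that choice of members.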

Additional observations from a re-analysis of the deposited data

How the results depend on the processing

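Of 10 genes, Itga8 and Mylk were the 2 counted with a peak in replicate 1, in replicate 2 and in both with gene limits of 10 kb and 1 kb, −log10 q of at least 5, fold of at least 3, lengths of at most 1000 bp and with nearest genes of any type. The same held for shared peaks defined by 50% reciprocal overlap or by summits within 100 bp. Leaving out either replicate leaves the single-list counts, 2 and 2, and adds no further support for the shared count. Counting a peak for every coding gene within 100 kb, chosen after seeing the data, raised the counts to 5 in replicate 1, 4 in replicate 2 and 4 for shared peaks, because more genes were counted per peak. With 1 central letter of the CArG box free, member promoters with a match went from 1 to 2, a setting also added later. Itga8 kept 1 of its 2 shared peaks with limits of 10 kb or 1 kb, a fold of at least 3, or genes of any type, and Mylk kept 2 throughout. The 3 shared peaks of the SRF partner list fell to 1 with peaks of at most 1000 bp and to 0 within 10 kb or with genes of any type. The 7 other contraction genes with a shared peak fell to 5 with −log10 q of at least 5 or a fold of at least 3. The 6 integrin list genes with a shared peak fell to 4 within 10 kb or 1 kb, with genes of any type, or with peaks of at most 1000 bp. Within 10 kb the paralogues fell from 1 to 0 and the endothelial genes from 2 to 1, the latter also with genes of any type or summits within 100 bp, and the pericyte genes fell from 2 to 1 with a fold of at least 3 or summits within 100 bp. No paired analysis was possible because the counts come from no test between groups, and only immunoprecipitate lists were used. Unknown depth limits any statement that a gene lacks a site: absence from a list is absence above the authors' threshold.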

Other observations

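Genes of other cell types of the lung wall were counted in the same way. Of 9 pericyte genes 2 had a shared peak (22.2%, beside 5.97% of all protein-coding genes), inside Anpep, an aminopeptidase gene, with 3.01- and 3.36-fold enrichment, and inside Angpt1, the angiopoietin gene, with 4.63- and 2.91-fold. Of 12 endothelial genes Erg (4.23- and 3.79-fold) and Sox17 (3.30- and 4.06-fold, 63.0 kb from the gene) had one (16.7%), and both encode transcription factors of the endothelium. Peaks in a single list were also found 8.87 kb from the cadherin gene Cdh5 (2.86-fold, replicate 1) and inside the receptor genes Flt1 and Tek (4.06- and 3.03-fold, replicate 2), so that 3 of the 12 had a replicate 1 peak, beside 10.4% of all protein-coding genes, and 4 a replicate 2 peak, beside 7.58%. In each of the 4 shared pairs at least 1 peak was longer than 1000 bp, and with peaks of at most 1000 bp both counts fell to 0. Of 15 epithelial genes none had a shared peak and 2 had a replicate 1 peak (13.3%, beside 10.4%). The epithelial genes were short, with a median length of 4.97 kb, beside 39.9 kb for the pericyte and 44.6 kb for the endothelial genes. Of all protein-coding genes under 40 kb, 2.95% had a shared peak. The lists were not matched for length, so their shares are no comparison of cell types. Sox9 and Id2, which mark the distal tips of the branching epithelium, had replicate 1 peaks of 6.14- and 3.42-fold at 19.2 kb and 2.67 kb.

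The neighbourhood of Cnn1 held 2 of the more enriched sites of the series. Besides the pair next to Plppr2 (ranks 23 and 22 by fold in the 2 lists), a pair inside Kank2, the gene of a cytoskeletal adaptor, lay 306 kb from Cnn1 with 19.4- and 14.0-fold enrichment (ranks 47 and 25) and summits at the same base, 21792878 on chromosome 9.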
